A study of Mus musculus with 6 samples.

Results

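The genes described here are the immunoglobulin heavy and light chain genes, measured in whole liver of mice given an antibody against PD-1 or an isotype control antibody. They are the genes whose symbol starts with Ighv, Igkv, Iglv, Ighg, Iglc or Igkj, together with Ighm, Ighd, Igha, Ighe, Igkc and Jchain, with no filter on level. The rule found 70 genes among the 21512 of the deposited table: 7 heavy chain constant genes, the kappa constant gene Igkc, 3 lambda constant genes, Jchain, 28 heavy V genes, 27 kappa V genes and 3 lambda V genes. No Igkj gene was among them, and Ighe was not analysed here. The chromosomes of the 70 genes are those of the antibody loci, with 35 genes on chromosome 12 (heavy chain), 28 on chromosome 6 (kappa) and 6 on chromosome 16 (lambda), while Jchain lies apart on chromosome 5.

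Liver RNA came from 3 mice that received anti-PD-1, an antibody to a receptor that restrains activated lymphocytes, and from 3 mice that received the isotype control. All 6 mice were C57BL/6J. Both groups ate a high-fat diet and received carbon tetrachloride, a liver toxin, over 12 weeks to model metabolic dysfunction-associated steatohepatitis (MASH), with an antibody dose every 3 days. The treatment field of anti-PD-1 mice 2 and 3 carries another number after "PD" than that of mouse 1, while the titles and the series design name PD-1 for all 3. The labels give no age or sex, and no cells were sorted, so every cell type of the liver contributed. The 8 hepatocyte markers, led by Alb, summed to 66516 to 79475 units in the anti-PD-1 livers and 67478 to 92993 units in the isotype control livers.

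An antibody is built from paired heavy and light chains, and each chain joins a variable region, encoded by a rearranged V gene with its short partner segments, to a constant region. B cells first carry the mu and delta constant regions (Ighm, Ighd) on their surface and can switch to gamma, alpha or epsilon classes. Plasma cells secrete antibody in bulk and so hold very large amounts of immunoglobulin RNA, and the J chain joins secreted IgM and IgA into polymers. In the liver, antibody-secreting and memory B cells are found among the infiltrating lymphocytes, and in rodents hepatocytes carry polymeric antibody towards the bile through the receptor encoded by Pigr.

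The most abundant heavy and kappa V genes were not the same in the 2 livers with the most immunoglobulin reads. The germline sequences of those leaders are shown for that reason, with the lambda pair. The sequences are the last 290 bases of the V-region exon, 5′ to 3′ on the coding strand, from the GENCODE M21 transcripts on GRCm38. Ighv1-82 (chr12:115952538-115952827, minus strand) led the heavy V genes in anti-PD-1 liver 1, and Ighv1-64 (chr12:115507545-115507834, minus strand) led them in isotype control liver 2. Igkv19-93 (chr6:68736297-68736586, minus strand) and Igkv6-32 (chr6:70074024-70074313, minus strand) led the kappa V genes of the same livers. Iglv1 (chr16:19085017-19085306, minus strand) and Iglv2 (chr16:19260401-19260690, minus strand) are the pair of closely alike lambda V genes. Capitals mark bases that differ from the nearest relative in a global alignment of the whole exon.
Ighv1-82: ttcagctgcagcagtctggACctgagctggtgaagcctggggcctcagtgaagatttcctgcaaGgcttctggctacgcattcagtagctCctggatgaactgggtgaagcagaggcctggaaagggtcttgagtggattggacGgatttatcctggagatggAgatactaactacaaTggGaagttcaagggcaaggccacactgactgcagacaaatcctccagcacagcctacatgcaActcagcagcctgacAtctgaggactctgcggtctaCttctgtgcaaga
Ighv1-64: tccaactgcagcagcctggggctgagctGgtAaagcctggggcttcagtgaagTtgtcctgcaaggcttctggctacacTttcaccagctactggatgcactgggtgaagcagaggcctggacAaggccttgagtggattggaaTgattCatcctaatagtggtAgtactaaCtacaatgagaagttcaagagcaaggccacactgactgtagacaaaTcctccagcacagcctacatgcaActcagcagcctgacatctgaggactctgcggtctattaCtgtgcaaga
Igkv19-93: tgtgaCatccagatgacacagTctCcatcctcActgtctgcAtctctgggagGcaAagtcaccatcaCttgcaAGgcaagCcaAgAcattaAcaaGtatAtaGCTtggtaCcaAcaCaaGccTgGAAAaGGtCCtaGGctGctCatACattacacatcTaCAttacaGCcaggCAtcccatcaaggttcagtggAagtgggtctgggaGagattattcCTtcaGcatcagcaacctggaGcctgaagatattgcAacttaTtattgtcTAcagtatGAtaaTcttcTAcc
Igkv6-32: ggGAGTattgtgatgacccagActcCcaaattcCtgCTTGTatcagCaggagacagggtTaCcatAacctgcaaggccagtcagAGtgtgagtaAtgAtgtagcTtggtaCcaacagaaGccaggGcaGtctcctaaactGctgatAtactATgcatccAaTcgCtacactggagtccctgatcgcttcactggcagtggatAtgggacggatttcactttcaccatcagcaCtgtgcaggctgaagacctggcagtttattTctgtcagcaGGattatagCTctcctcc
Iglv1: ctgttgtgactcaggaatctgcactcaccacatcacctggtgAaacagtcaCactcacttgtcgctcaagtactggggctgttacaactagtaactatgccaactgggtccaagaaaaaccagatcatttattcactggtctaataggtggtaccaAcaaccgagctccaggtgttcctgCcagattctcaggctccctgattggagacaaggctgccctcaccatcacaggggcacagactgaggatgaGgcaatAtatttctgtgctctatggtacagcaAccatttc
Iglv2: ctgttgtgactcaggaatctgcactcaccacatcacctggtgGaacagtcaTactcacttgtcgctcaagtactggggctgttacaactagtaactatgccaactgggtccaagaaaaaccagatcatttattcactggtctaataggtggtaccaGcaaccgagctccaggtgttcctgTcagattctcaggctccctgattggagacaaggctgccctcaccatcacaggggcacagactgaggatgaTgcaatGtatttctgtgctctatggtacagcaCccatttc
The nearest relative of Ighv1-82 was Ighv1-80 and that of Ighv1-64 was Ighv1-72, each with 12 differing bases and 96.1% identity. Iglv1 and Iglv2 differed from each other at 9 bases, with 97.0% identity. Igkv6-32 stood further from its nearest relative Igkv6-17, with 42 differences and 85.9% identity, and Igkv19-93 further still from Igkv10-94, with 63 differences and 78.9% identity. None of the 50-base windows of the Igkv6-32 and Igkv19-93 transcripts occurred in another gene's transcript, while 33.4% of those of Ighv1-64, 14.8% of those of Ighv1-82, 22.2% of those of Iglv1 and 21.1% of those of Iglv2 did. Over the 70 genes the median share was 22.2%, 12 genes shared no window and 9 shared more than 50%, so the split of reads among near-identical V genes is uncertain. Ighm, Ighd, Igha, Igkc, Iglc1 and Jchain shared no window with another gene.

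The libraries held 15528364 to 20779319 reads. Values are the authors' normalized values, on which 3 reads were worth 0.144 to 0.200 units, depending on the library. Immunoglobulin RNA was scarce in these livers. The 70 genes together held 4126, 229 and 461 reads in the anti-PD-1 livers and 735, 2120 and 486 reads in the isotype control livers, and 47 of the 70 had under 30 reads over all 6 libraries. Anti-PD-1 liver 1 and isotype control liver 2 stood apart from the other livers of their groups for most of these genes, and the main results are given with and without them. Of the 70 genes, 40 (57.1%) had their highest value in anti-PD-1 liver 1 and 21 (30%) in isotype control liver 2, against 19.3% and 15.4% of all genes in the table. No gene of the table had under 6 reads over all libraries, which favours members read in the livers with many immunoglobulin reads. The shares of the members thus partly follow from how genes entered the table.

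No immunoglobulin gene was called higher or lower with anti-PD-1. The limma test, on log2(value + 0.5), took in the genes that reached 1 unit in 3 or more libraries, and an adjusted p under 0.05 was called. Only 5 members, Ighm, Ighd, Igha, Igkc and Jchain, passed that filter, and 65 did not. None of the 5 was called and none had an unadjusted p under 0.05, whereas over the 13990 genes tested 1 was higher (0.00715%) and 0 were lower (0%). At an unadjusted p under 0.05, limma had 705 genes higher (5.04%) and 873 lower (6.24%). The median log2 fold change was -0.02 over the 5 members and 0.00 over all genes tested. With the replicate number as a block, limma also called 0 members, beside 0.193% of genes higher and 0.0929% lower. With no filter, which lets all 70 members in among 21512 genes, 0 members were called by limma (0.00465% of all genes higher, 0% lower), by edgeR (0.00465% and 0%) and by DESeq2 (0.651% and 0.437%). DESeq2 gave no p for Ighm, which could therefore not be called by it. At an unadjusted p under 0.05 limma then had 0 members higher and 2 lower (4.45% and 4.96% of all genes), edgeR 3 and 4 (4.86% and 4.89%), and DESeq2 4 and 3 (4.55% and 3.65%). With no filter, the limma fold change was above 0 for 39 of the 70, with a median of 0.01.

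**Figure D1:**
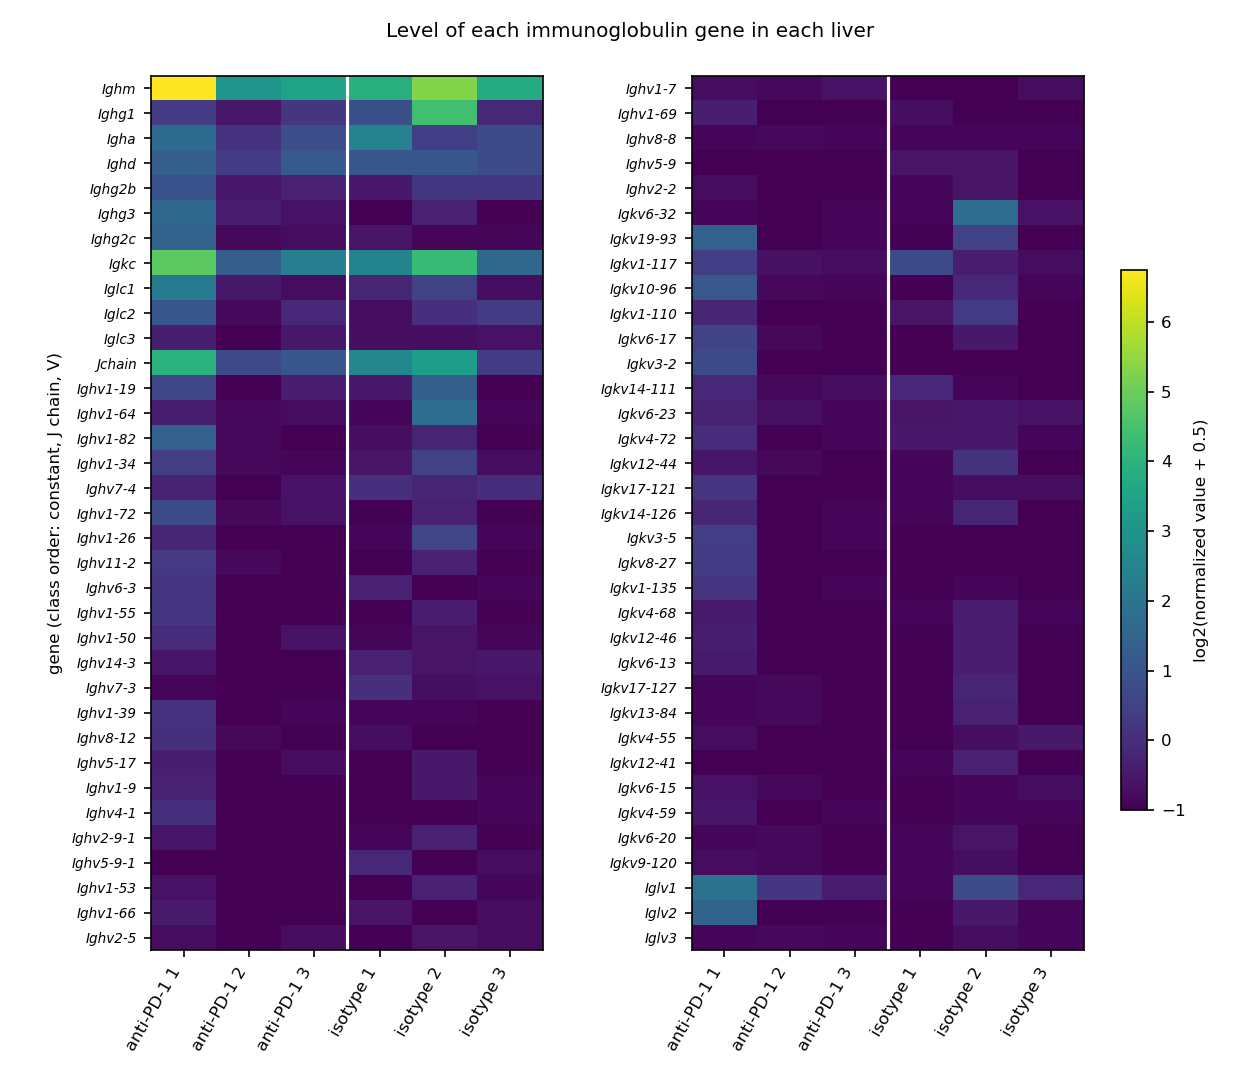
Level of each of the 70 immunoglobulin genes (rows, by class) in each liver (columns, anti-PD-1 left of the white line, isotype control right), as log2 of the normalized value + 0.5. Anti-PD-1 liver 1 is the highest column for 40 genes and isotype control liver 2 for 21, and most V genes are near the bottom of the scale in the other 4 livers.

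The summed level of the 70 genes varied more within each group than between the groups. It was 198, 15.2 and 23.9 units in the anti-PD-1 livers and 39.7, 115 and 24.4 units in the isotype control livers. One liver in each group was far above the others, so the groups overlapped over most of a 13-fold range. Anti-PD-1 liver 1 had 10.1 times the mean of the other anti-PD-1 livers, and isotype control liver 2 had 3.58 times the mean of the other controls. The group means were 79.1 ± 103 units with anti-PD-1 and 59.6 ± 48.3 units with the isotype control (SD, n = 3 each). The difference in mean log2 sum was -0.21, beside SDs of 1.98 among anti-PD-1 livers and 1.14 among isotype control livers. Leaving out single livers in turn, the difference ran from -1.33 to 0.52. Without the high liver of each group, the means were 19.5 units with anti-PD-1 and 32.0 units with the isotype control (n = 2 each). In RNA of whole liver, a difference in the number of antibody-making cells cannot be told apart from one in immunoglobulin RNA per cell.

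The classes were highest in anti-PD-1 liver 1 but did not rank the other livers alike. Heavy constant genes summed to 119, 9.79 and 14.7 units with anti-PD-1 and to 22.3, 63.4 and 16.8 units with the isotype control. The 58 V genes summed to 31.3, 2.13 and 2.33 units with anti-PD-1 and to 6.20, 21.8 and 3.27 units with the isotype control. In these sums anti-PD-1 liver 2 was the lowest. The 3 lambda V genes summed to 5.62, 0.732 and 0.310 units with anti-PD-1 and to 0.054, 1.57 and 0.503 units with the isotype control, and there isotype control liver 1 was the lowest. The sum over all members except Ighm gave a log2 difference of -0.41, with SDs of 1.88 among anti-PD-1 livers and 1.37 among isotype control livers.

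**Figure D2:**
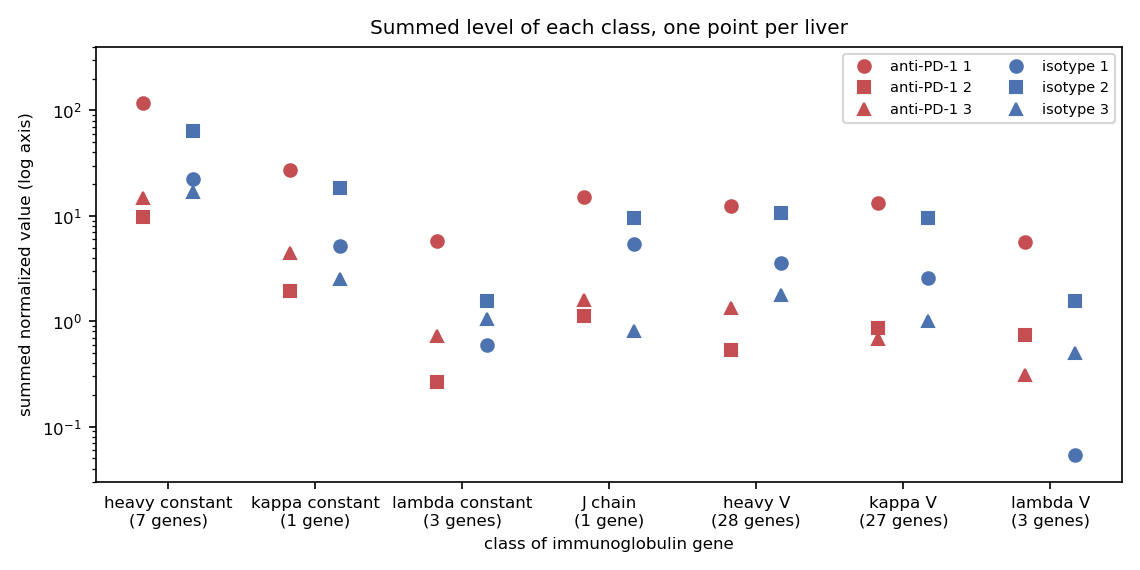
Summed normalized value of each class of immunoglobulin gene on a log axis, with 1 point per liver, anti-PD-1 in red and isotype control in blue. In every class anti-PD-1 liver 1 is the highest point, and in every class except the J chain and the lambda V genes the control points lie within the range of the anti-PD-1 points.

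Ighm, the constant region of IgM, was the most abundant member in every liver. It measured 107, 7.66 and 10.5 units with anti-PD-1 and 14.1, 39.3 and 13.1 units with the isotype control. The high anti-PD-1 liver was above every control, and the other anti-PD-1 livers were below every control. The log2 fold change was 0.09 (SE 0.92, limma adjusted p = 0.98), and it was 0.93 by edgeR and 0.94 by DESeq2 on recovered reads. By limma it turned to -1.08 (adjusted p = 0.327) without anti-PD-1 liver 1. Without the high liver of each group it was -0.58 (limma adjusted p = 0.322). The means were then 9.05 units with anti-PD-1 and 13.6 units with the isotype control.

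Ighd, the IgD constant region carried mainly by mature naive B cells, varied far less. It measured 2.07, 0.799 and 1.76 units with anti-PD-1 and 1.62, 1.62 and 1.26 units with the isotype control. The controls lay inside the range of the anti-PD-1 livers, and neither liver with high Ighm stood apart for Ighd. The log2 fold change was -0.02 (SE 0.30, limma adjusted p = 0.984). Ighm reads per Ighd read were accordingly 51.7, 9.58 and 5.94 in the anti-PD-1 livers and 8.70, 24.2 and 10.4 in the isotype control livers.

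The make-up of heavy chain classes was described as shares of heavy constant reads, which do not depend on scaling between libraries. Ighm held 90.1, 78.2 and 70.9% of these reads in the anti-PD-1 livers and 63.0, 61.9 and 78.1% in the isotype control livers. The groups overlapped, with means of 79.7 ± 9.69% under anti-PD-1 and 67.7 ± 9.05% under the isotype control (SD, n = 3 each). All 4 IgG genes together held 5.87, 7.48 and 8.42% with anti-PD-1 and 7.73, 34.1 and 6.89% with the isotype control. Isotype control liver 2 was the exception, and the other 5 livers lay close to each other.

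Ighg1, the constant region of IgG1, made that exception. It had 16, 3 and 13 reads in the anti-PD-1 livers and 25, 380 and 8 reads in the isotype control livers. In isotype control liver 2 it held 32.4% of heavy constant reads (exact 95% interval 29.7 to 35.2%), against at most 6.04% in the other 5 livers. In units this was 0.769, 0.200 and 0.673 with anti-PD-1 and 1.35, 20.6 and 0.402 with the isotype control. The log2 fold change in the fit with no filter was -1.69 (SE 0.98, limma adjusted p = 0.622), and without the high liver of each group the means were 0.436 units with anti-PD-1 and 0.876 units with the isotype control.

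The other gamma genes had the most reads in anti-PD-1 liver 1, where each exceeded Ighg1. Ighg3, the constant region of IgG3, had 53, 4 and 3 reads with anti-PD-1 and 0, 6 and 0 reads with the isotype control. As a share of heavy constant reads it was 2.15, 2.72 and 1.05% with anti-PD-1, and 0, 0.512 and 0% with the isotype control. By the limit of 3 reads, the counts of 0 allow up to 0.725 and 0.898%. The shares of the 3 anti-PD-1 livers were above those of the 3 controls. However, the exact 95% intervals of anti-PD-1 livers 2 (0.746 to 6.82%) and 3 (0.218 to 3.05%) overlapped those of every control. The control intervals ended at 0.887, 1.11 and 1.10%. Only the interval of anti-PD-1 liver 1 (1.61 to 2.80%) lay above all of them. The level of Ighg3 overlapped between groups, with a log2 fold change of 0.96 in the fit with no filter (SE 0.53, limma adjusted p = 0.604). Ighg2c had 46, 1 and 2 reads with anti-PD-1 and 3, 1 and 1 reads with the isotype control. Ighg2b had 30, 3 and 6 reads with anti-PD-1 and 4, 13 and 14 reads with the isotype control.

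Igha, the constant region of IgA, did not follow the high livers. It measured 2.74, 0.599 and 1.29 units with anti-PD-1 and 4.91, 0.866 and 1.26 units with the isotype control. Isotype control liver 1 was the highest and gave Igha 22% of its heavy constant reads (exact 95% interval 18.1 to 26.3%). The shares were 2.31, 6.12 and 8.77% in the anti-PD-1 livers and 1.37 and 7.49% in the other isotype control livers, numbers 2 and 3. The log2 fold change of Igha was -0.34 (SE 0.58, limma adjusted p = 0.855), and without isotype control liver 1 it was 0.26 (adjusted p = 0.92). Without anti-PD-1 liver 1 and isotype control liver 2 it was -1.13 (adjusted p = 0.453).

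**Figure D3:**
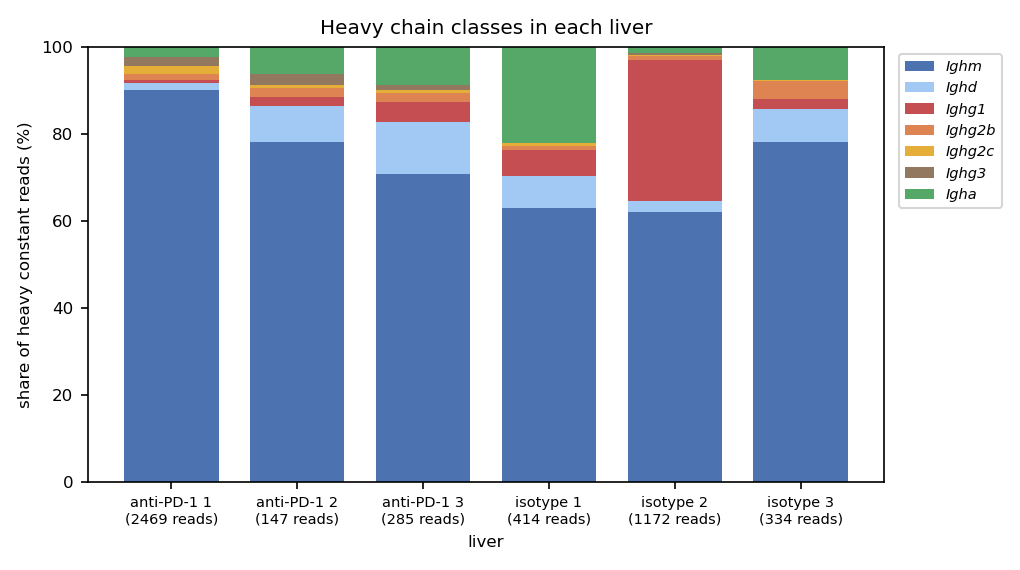
Share of heavy chain constant reads, in percent, held by each of 7 constant genes in each liver, anti-PD-1 left and isotype control right, with the number of reads under each bar. Ighm holds 61.9 to 90.1%, Ighg1 stands out in isotype control liver 2 (32.4%) and Igha in isotype control liver 1 (22%).

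Among the light chains, Igkc, the only kappa constant gene, measured 27.4, 1.93 and 4.45 units with anti-PD-1 and 5.13, 18.5 and 2.51 units with the isotype control. The same 2 livers were high as for Ighm. The log2 fold change was 0.02 (SE 0.94, limma adjusted p = 0.996), and without the high liver of each group it was -0.25 (adjusted p = 0.857). Per kilobase of coding length, Igkc was at 85.6, 6.03 and 13.9 units with anti-PD-1 and 16.02, 57.7 and 7.86 units with the isotype control. On the same per-kilobase scale Ighm was at 71.9, 5.15 and 7.03 units with anti-PD-1 and 9.48, 26.4 and 8.83 units with the isotype control. Igkc was thus above Ighm per kilobase in every liver except isotype control liver 3.

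The lambda constant genes were much lower. Iglc1 had 82, 3 and 2 reads in the anti-PD-1 livers and 7, 17 and 2 reads in the isotype control livers. Iglc2 had 33, 1 and 8 reads with anti-PD-1 and 2, 10 and 16 reads with the isotype control, and Iglc3 had at most 6 reads in any liver. The lambda share of light chain constant reads was 17.5, 12.1 and 14.0% with anti-PD-1 and 10.4, 7.84 and 29.6% with the isotype control. The anti-PD-1 shares lay inside the range of the controls, whose highest value came from 21 lambda reads.

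Jchain, which links IgM and IgA polymers and is made mainly by antibody-secreting cells, measured 15.1, 1.13 and 1.60 units with anti-PD-1 and 5.40, 9.52 and 0.804 units with the isotype control. It was high in the livers with high Ighm and lowest in isotype control liver 3. The log2 fold change was -0.18 (SE 0.98, limma adjusted p = 0.964), and it was 0.21 under edgeR on recovered reads. Without the high liver of each group, Jchain averaged 1.37 units with anti-PD-1 and 3.10 units with the isotype control (n = 2 each). Jchain reads per Ighm read were nearly the same in the 3 anti-PD-1 livers, at 0.141, 0.148 and 0.153, while the isotype control livers ran from 0.061 to 0.383.

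The heavy V genes showed which rearranged segments were read in each liver. The 28 genes had 258, 8 and 26 reads in the anti-PD-1 livers and 66, 198 and 35 reads in the isotype control livers. Ighv1-82 had 44 reads in anti-PD-1 liver 1, or 17.1% of its heavy V reads (exact 95% interval 12.7 to 22.2%), and at most 7 in any other liver. Ighv1-64 had 54 reads in isotype control liver 2, or 27.3% of its heavy V reads (21.2 to 34.0%), and at most 6 in any other liver. Ighv1-64 held 2.33% in anti-PD-1 liver 1, and Ighv1-82 held 3.54% in isotype control liver 2. These genes are shown because they led, so their high shares are a description of each liver.

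Ighv1-19 had the highest mean level of the heavy V genes over the 6 livers and was read in both high livers, with 22, 0 and 5 reads under anti-PD-1 and 4, 38 and 0 under the isotype control. It led in anti-PD-1 liver 3 with 5 of 26 reads. Ighv7-4 led in isotype control liver 3 with 10 of 35 reads and tied with Ighv7-3 in isotype control liver 1 at 10 of 66 each. In anti-PD-1 liver 2, 8 genes had 1 read each.

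The 27 kappa V genes had 277, 13 and 13 reads in the anti-PD-1 livers and 48, 175 and 20 reads in the isotype control livers. Igkv19-93 had 45 reads in anti-PD-1 liver 1, or 16.2% of its kappa V reads (exact 95% interval 12.1 to 21.1%). Igkv1-117 had 22 of the 48 reads of isotype control liver 1, or 45.8% (31.4 to 60.8%), although 49.9% of its 50-base windows also occur in other genes. Igkv6-32 had 54 reads in isotype control liver 2, or 30.9% (24.1 to 38.3%), and at most 3 in any other liver. The top heavy and kappa V genes of isotype control liver 2 thus had the same number of reads. Igkv4-55 led in isotype control liver 3 with 4 of 20 reads.

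**Figure D4:**
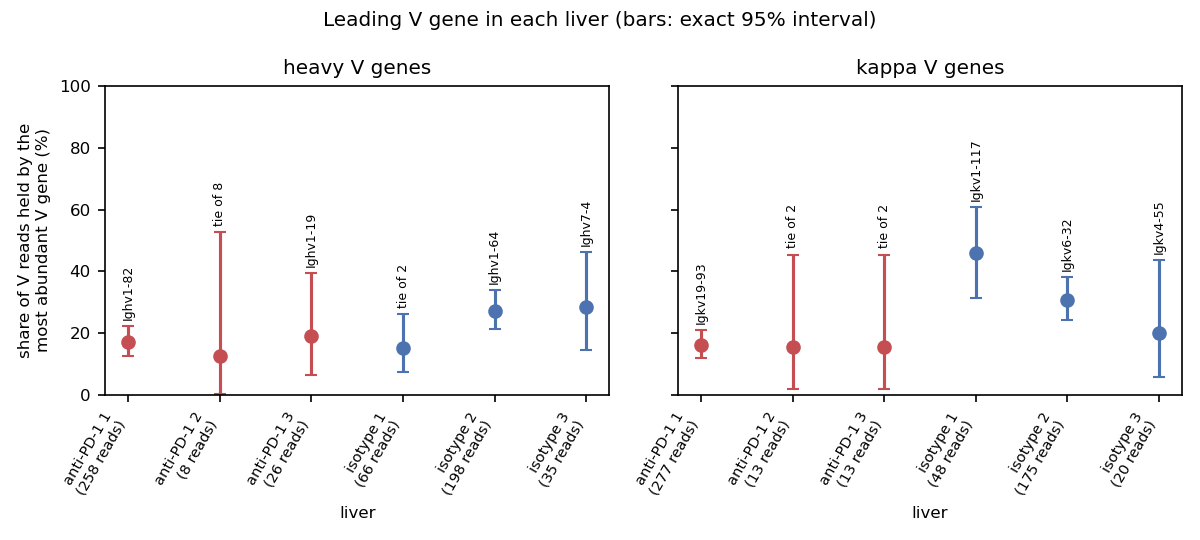
Share of heavy V reads (left) and kappa V reads (right), in percent, held by the most abundant V gene of each liver, with exact 95% intervals as bars, the gene's name above and the number of V reads below. Anti-PD-1 liver 1 is led by Ighv1-82 (17.1%) and Igkv19-93 (16.2%), and isotype control liver 2 by Ighv1-64 (27.3%) and Igkv6-32 (30.9%).

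Some kappa V genes were read in anti-PD-1 liver 1 and hardly elsewhere. Igkv3-2 had 24 reads there and 0 in each of the other 5 livers. Igkv8-27 had 16 reads there and 0 elsewhere, and Igkv3-5 had 17 reads there with 1 more in anti-PD-1 liver 3. Igkv8-27 and Igkv3-5 were chosen for mention after their values were seen. Igkv3-2 held 8.66% of the kappa V reads of anti-PD-1 liver 1 (exact 95% interval 5.63 to 12.6%). Its count of 0 among 175 kappa V reads allows a share of up to 1.71% in isotype control liver 2, and that among 13 reads up to 23.1% in each of anti-PD-1 livers 2 and 3.

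Of the lambda V genes, Iglv1 led in every liver. It had 68, 10 and 5 reads with anti-PD-1 and 1, 23 and 8 reads with the isotype control. Iglv2 had 48, 0 and 0 reads with anti-PD-1 and 0, 4 and 1 reads with the isotype control, and Iglv3 had at most 2 in any liver. Anti-PD-1 liver 1 was the liver with the most reads of Iglv1 and Iglv2, and 7 of the 9 bases that tell the pair apart are the capitals in the sequences printed above.

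The breadth of V gene use was compared at a fixed number of reads, because the number of V genes seen depends on the number of V reads. With at least 1 read counted, 55, 21 and 24 of the 58 V genes were seen in the anti-PD-1 livers and 33, 48 and 29 in the isotype control livers. No gene of the table had under 6 reads over all libraries. V genes read a few times only in the livers with few V reads would thus be missing from the 58. Neither the counts at a fixed number of reads nor the V gene shares above correct for this. The fixed number was 32 V reads, the fewest in any liver. At that number 19.99, 21 and 19.8 V genes were expected with anti-PD-1 and 17.04, 18.03 and 19.4 with the isotype control. The 3 anti-PD-1 livers were above the 3 controls by a narrow margin, with means of 20.3 ± 0.656 under anti-PD-1 and 18.1 ± 1.17 under the isotype control (SD, n = 3 each). At 16 reads the values were 12.3, 11.5 and 12.3 with anti-PD-1 and 10.9, 11.3 and 11.9 with the isotype control, and the groups overlapped. At 402 reads, which only the high livers reach, 51.3 V genes were expected in anti-PD-1 liver 1 and 48 were seen in isotype control liver 2.

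No member was higher in every anti-PD-1 liver than in every isotype control liver, and 3 were lower (Ighv7-4, Ighv7-3 and Igkv6-32). Over all 21512 genes, 6.63% were higher in this sense and 8.52% were lower, so 3 of 70 is no larger a share than in the whole table. Ighv7-4 had 7, 0 and 3 reads with anti-PD-1 and 10, 7 and 10 reads with the isotype control. Its log2 fold change in the fit with no filter was -0.58 (SE 0.22, limma unadjusted p = 0.028, adjusted p = 0.468). Ighv7-3 had 1, 0 and 0 reads with anti-PD-1 and 10, 2 and 3 reads with the isotype control, with a log2 fold change of -0.53 (SE 0.21, limma unadjusted p = 0.037, adjusted p = 0.49). For Igkv6-32 the separation from isotype control liver 1 came from the scaling of a single read in each library.

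The B cell genes other than the antibody genes were, in sum, high in anti-PD-1 liver 1 and not in isotype control liver 2. The B cell list held 18 genes, of which 17 were in the table and 11 were tested. By limma 0 were called in either direction and 0 had an unadjusted p under 0.05, and 7 of 11 fold changes were above 0 with a median of 0.08 on the log2 scale. The list summed to 53.3, 21.2 and 24.1 units with anti-PD-1 and 35.7, 26.1 and 22.8 units with the isotype control. Anti-PD-1 liver 1 was the highest, whereas isotype control liver 2, which had 115 units of immunoglobulin RNA, lay between the other controls. Gene by gene, 11 of the 17 were highest among the controls in isotype control liver 1, 5 in isotype control liver 2 and 1 in isotype control liver 3. Ms4a1, which encodes CD20, measured 2.21, 0.666 and 1.76 units with anti-PD-1 and 2.59, 0.758 and 0.955 units with the isotype control. Cd79a, a signalling chain of the B cell receptor, measured 1.87, 1.13 and 0.673 units with anti-PD-1 and 1.24, 1.299 and 0.654 units with the isotype control.

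The plasma cell list had 13 of its 14 genes in the table and 10 tested, with 0 called by limma and 1 higher and 1 lower at an unadjusted p under 0.05. It summed to 537, 612 and 656 units with anti-PD-1 and 567, 451 and 475 units with the isotype control, and its sum was lower in both high livers than in some of the others. Most of that sum was Sdc1 and Xbp1, which hepatocytes also express, together with Txndc5. Mzb1, an endoplasmic reticulum chaperone of antibody-secreting cells, measured 0.432, 0.333 and 0.207 units with anti-PD-1 and 0.054, 0.325 and 0.302 units with the isotype control, or at most 9 reads. Pou2af1, a B cell coactivator of immunoglobulin transcription, measured 1.34, 0.732 and 0.673 units with anti-PD-1 and 1.03, 1.14 and 0.654 units with the isotype control. Prdm1 measured 6.39, 1.66 and 2.33 units with anti-PD-1 and 1.78, 1.62 and 1.11 units with the isotype control. Irf4 was also highest in anti-PD-1 liver 1, at 2.35 units, whereas Fkbp11 was lowest there, at 3.07 units. Among the controls, 9 of the 13 genes were highest in isotype control liver 1, 2 in isotype control liver 2 and 2 in isotype control liver 3. Tnfrsf17, the plasma cell receptor BCMA, was not analysed here.

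**Figure D5:**
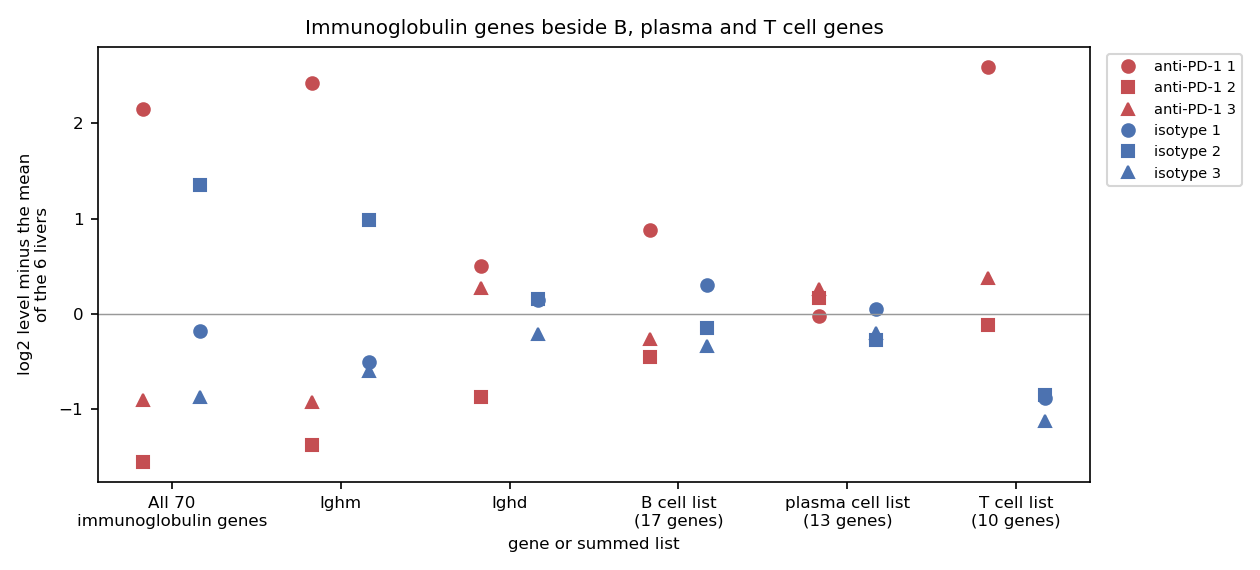
Log2 level of the 70 immunoglobulin genes together, of Ighm and Ighd, and of the B cell, plasma cell and T cell lists, each minus its mean over the 6 livers, with anti-PD-1 in red left of isotype control in blue. Isotype control liver 2 (square) is high for the immunoglobulin sum (115 units) and Ighm (39.3 units) but not for the B cell list (26.1 units). Anti-PD-1 liver 1 is also the highest for the T cell list (52.4 units), where the other anti-PD-1 livers also lie above every control.

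Some other immune genes were also highest in the high anti-PD-1 liver. The T cell list (10 of 10 genes in the table, 2 tested) summed to 52.4, 7.99 and 11.3 units with anti-PD-1 and 4.69, 4.82 and 3.97 units with the isotype control. Every anti-PD-1 sum was above every control sum, so the T cell sum differed between the groups outside the high liver too. This did not hold for each gene. In anti-PD-1 liver 2, Trac and Trbc1 (0.333 and 0.399 units) lay inside the range of the controls, and Trbc2 (0.266 units) lay below it. The other genes of the list were above every control there. The tested genes were Cd8a and Cd3e, subunits of the CD8 co-receptor and of the T cell receptor complex. Limma called 0 of the 2, both had an unadjusted p under 0.05 in the higher direction, and DESeq2 called both higher (adjusted p = 0.000885 for Cd8a and 0.0213 for Cd3e). Their part in the immunoglobulin level of anti-PD-1 liver 1 was not tested. In isotype control liver 2 the T cell sum was as low as in the other controls. Tnfsf13b, which encodes the B cell survival factor BAFF, measured 4.66, 0.866 and 0.828 units with anti-PD-1 and 0.432, 1.299 and 0.704 units with the isotype control. It was highest in each group in the liver with the most immunoglobulin RNA. Tnfsf13, from the same list, measured 1.92, 0.067 and 0.828 units with anti-PD-1 and 1.19, 0.216 and 0.603 units with the isotype control. Among the controls, Tnfsf13 was lowest in isotype control liver 2, at 4 reads. Outside that list, Cxcl13, a chemokine that draws B cells, measured 1.87, 0 and 0.103 units with anti-PD-1. It measured 0.540, 0.162 and 0.302 units with the isotype control. The list of B cell survival and switch factors that holds both had 9 of 14 genes in the table and 2 tested. Limma called 0 of them, with 0 at an unadjusted p under 0.05. Among the controls, 5 of the 9 genes were highest in isotype control liver 1, 3 in isotype control liver 2 and 1 in isotype control liver 3.

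The germinal centre list had 7 of 10 genes in the table and 3 tested, of which limma called 0, with 0 higher and 1 lower at an unadjusted p under 0.05. That gene, Bcl6, which encodes a repressor active in germinal centres and also expressed in hepatocytes, measured 8.60, 11.5 and 4.45 units with anti-PD-1 and 47.3, 52.8 and 12.97 units with the isotype control. Its log2 fold change was -1.999 (limma adjusted p = 0.27), and it was called lower with the replicate block (adjusted p = 0.0432). That block was itself chosen from the same data, so its p-values may be too small. The receptors and transporters of antibody (9 of 10 genes in the table, 8 tested) had 0 called by limma and 0 at an unadjusted p under 0.05, with 6 of 8 fold changes above 0. Fcgr4, an activating IgG receptor of myeloid cells, measured 32.7, 6.19 and 6.98 units with anti-PD-1 and 7.12, 4.22 and 4.57 units with the isotype control. Pigr measured 1194, 1397 and 1656 units with anti-PD-1 and 1212, 995 and 1250 units with the isotype control, and the groups overlapped. Of 8 hepatocyte markers limma called 0, with 0 at an unadjusted p under 0.05. Of 6 Kupffer cell markers it called 0, with 5 lower at an unadjusted p under 0.05. Of the Kupffer cell markers, Cd163 was called lower with the replicate block (limma adjusted p = 0.0298), and DESeq2 called Cd163, Timd4 and Marco lower (adjusted p = 3.45e-06, 0.00298 and 0.00699).

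The genes whose pattern over the 6 livers was most like that of the summed immunoglobulin level were described by Pearson's r on the log2 scale. Acss1, a mitochondrial acetyl-CoA synthetase, had the highest r at 0.995, with 2.64, 0.866 and 0.983 units under anti-PD-1 and 1.40, 2.00 and 1.06 units under the isotype control. Dnm3os, a non-coding RNA, had an r of 0.994 and Haus3, a subunit of the augmin complex, 0.992, and the tenth gene had 0.979. All these values rest on the same 6 libraries, of which 2 stand high. Within the members, r with the sum of the others was 0.978 for Igkc, 0.935 for Ighm and 0.933 for Jchain, but 0.502 for Ighg1 and 0.312 for Igha.

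The octamer ATGCAAAT is the element of immunoglobulin promoters bound by the factors that Pou2af1 assists. Among the members only Jchain had an entry in the RefSeq promoter table (GRCm38.p6), and neither this motif nor its reverse complement ATTTGCAT was in that window, while 570 of 32851 promoters (1.74%) held it on either strand.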

How the data were processed

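Whole-liver RNA of 6 mice (3 per group) was depleted of ribosomal RNA and made into directional libraries, per the labels' protocols. Groups follow sample titles and the series design, and the titles give each mouse its own number. The submitters' processing notes list Trimmomatic 0.38, RSEM 1.3.0, Bowtie2, edgeR and GRCm39, with no roles, annotation or strand setting. The deposited signal holds a value for each gene in each library, as normalized by the authors. For 100% of entries the value was a whole multiple of 1 read, within 0.001 read. Reads could therefore be recovered, though rounded estimates would look the same. No gene had under 6 reads over all libraries. A table of names gave symbols for 21407 identifiers, and 367 of its symbols fit the rule. The remaining 105 identifiers held 1.2 to 2.7% of reads.

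The main test was two-sided limma (version 3.58.1, R 4.3.3) on log2(value + 0.5), using limma's intensity trend, Benjamini-Hochberg adjustment over every gene tested and a threshold of 0.05. On that scale changes of low genes are understated. Alternatives on recovered reads used edgeR 4.0.16 or DESeq2 1.42.0. Sums, shares and expected numbers of V genes (hypergeometric) were computed without a test, with exact Clopper-Pearson 95% intervals. Intervals, and the limit of 3 reads for a count of 0, cover counting error only. The fits were tested on simulated counts. Sequence windows, V exons and coding lengths came from GENCODE M21 on GRCm38, an older build than that of the values.

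The members, the 8 context lists (B cell, plasma cell, germinal centre, antibody receptors and transport, B cell survival and switching, T cell, hepatocyte, Kupffer cell) and the tests were chosen with earlier results of these data known. The named members are the constant genes, Jchain, the 3 most abundant V genes of each chain, the leading V genes of each liver and those with the smallest p in each direction. Genes of the context lists were named from a fixed set or, at most 2 per list and direction, by the smallest p. Marco, Trac, Trbc1 and Trbc2 were named after their values were seen. Other members, named where a range or a count needed them, were chosen after their values were seen.

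The labels give replicates 1 to 3 in both groups and do not say what the numbers share. The deviations of same-numbered livers from their group means had correlations of 0.149, 0.135 and 0.251. By the rule that each exceed 0.1, same-numbered mice were taken as pairs, on the values alone. A limma fit with a replicate block was therefore an alternative to the unpaired one: it called 27 genes higher and 13 lower, and 0 members. Because the block was chosen on the same values it was fitted to, its p-values may be too small.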

Additional observations from a re-analysis of the deposited data

How the results depend on the processing

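No immunoglobulin gene was called in any of the 27 alternative settings. Those that kept a filter tested only 3 to 5 of the 70 members, so the others could not be called there. From the same fits came 93 fold changes of Ighm, Ighd, Igha, Igkc and Jchain, of which 26 changed sign. They are not further tests. DESeq2 gave no p for Ighm, with or without the filter, so Ighm could not be called there. The count over all genes was less steady. Against 1 higher and 0 lower, 27 and 13 were called with the replicate block, 151 and 110 by DESeq2, 140 and 94 by DESeq2 with no filter, and 0 and 0 by edgeR. Leaving out 1 liver gave 0 to 24 higher and 0 to 6 lower, the most without anti-PD-1 liver 1; 0 were higher without anti-PD-1 liver 3 and 2 without isotype control liver 2. Leaving out anti-PD-1 liver 1 and isotype control liver 2 together gave 0 higher. That alternative, and every setting that combines no filter with another change (edgeR, DESeq2, the block or livers left out), were added after seeing the data.

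Leaving out 1 liver, the log2 fold change ran from -1.08 to 0.78 for Ighm, -0.74 to 0.26 for Igha, -0.22 to 0.27 for Ighd, -0.98 to 0.78 for Igkc and -1.20 to 0.44 for Jchain. Without both high livers it was -0.58 for Ighm, -1.13 for Igha and -0.25 for Igkc. Ighd, at -0.02, turned to 0.00081 with a pseudocount of 2, 0.0625 by edgeR, 0.0708 by DESeq2, and 0.0543 and 0.0685 by these with no filter. Jchain turned to 0.21 by edgeR and DESeq2, and to 0.20 and 0.21 by these with no filter. Ighm and Igkc kept their sign but were larger on recovered reads. Ighm, at 0.09, was 0.93 by edgeR and 0.94 by DESeq2, and 0.92 and 0.93 by these with no filter. Igkc, at 0.02, was 0.39 by edgeR and 0.40 by DESeq2. The cause was not tested. Of 131 recomputed sums, shares and numbers of genes, 2 moved by more than the spread: the difference in Ighg2c share was 0.179 percentage points without both high livers, against 0.712 (0.321 to 0.913 leaving out 1 liver), and that in expected V genes was 0.684 at 16 reads, against 2.11 at 32 reads. The spread is the SD within groups, so a change of sign can fall inside it. The differences in the IgA share (-8.999 to 1.31 percentage points) and the lambda share (-5.43 to 5.44) changed sign as single livers were left out. So did those in the Ighd share (-0.811 to 4.28) and the Ighg2b share (-0.863 to 0.749). The log2 sums changed sign as well: -1.33 to 0.52 for all members, -1.26 to 0.54 for heavy constant genes and -1.08 to 0.83 for Igkc. The ranges were -1.18 to 1.04 for lambda constant genes and -1.77 to 0.26 for V genes.

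The number of V reads limits most V genes: in anti-PD-1 liver 2, 1 of 58 reached 3 reads, against 43 in anti-PD-1 liver 1.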
